A study of Mus musculus with 6 samples.

Results

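The kallikrein (Klk) and clade B serpin (Serpinb) genes of the mouse were described in sorted thymic cells with and without RelA. Members were all genes whose symbol is Klk or Serpinb followed by a digit and for which a probe of the array was named through its transcript accession. This gave 54 of the 20866 genes named on the array, 27 kallikreins and 27 clade B serpins. The probe with the highest mean on the 6 arrays stood for a gene. Klk1b26, Serpinb6c, Serpinb9c, Serpinb9e and Serpinb12 had 2 probes and the other members 1. Within the 2 families the symbol alone decided membership, while the families themselves were picked with earlier results of these data known. A further 12 genes with such symbols, 11 of them pseudogenes and the other Serpinb9h, were named by no probe and are not analysed here.

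RNA was measured on 1-colour Agilent arrays, 1 for each of 2 genotypes in 3 sorted populations. The genotypes were the double knockout of TNF and RelA (TNF/RelA-DKO) and the TNF knockout (TNF-KO), both C57BL/6, so that the labels give every group as lacking TNF, and mice with TNF are not analysed here. The mice were 1.5 to 2 weeks old. The 2 stromal gates, CD45-EpCAM+ (epithelial) and CD45+EpCAM- (haematopoietic), each came from 10 pooled thymi per genotype, and CD4+CD25hi thymocytes, a gate that holds regulatory T cells, from 5 pooled mice per genotype. RelA is a subunit of NF-kB, a transcription factor, and the TNF-KO mice serve as the control because mice that lack RelA alone die as embryos.

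A level below is log2 of a probe's processed signal minus the 75th percentile of its array, so that a level of 0 is the signal of that percentile, and levels are set only against other arrays of the same probe. A probe counted as detected where the scanner software marked it well above background. Where a gene was detected on only 1 side of a comparison, the undetected side took the lowest level detected on that array, or its own level where that was higher, and the difference is given as "at least". With 1 array per genotype and population, a difference between genotypes has no replicate check and no test. As a partial scale for it, probes of the same gene differed in that difference with an SD of 0.32 in the epithelial gate, 0.21 in the haematopoietic gate and 0.22 in thymocytes. Such probes share the same pools and arrays, so that this SD leaves out the spread between pools, sorts and arrays. Members 2-fold apart or more were counted. In these bulk samples fewer cells of a type and less RNA per cell cannot be told apart. The number of arrays limits the precision throughout.

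The array of TNF/RelA-DKO CD45-EpCAM+ cells was the dimmest, with a 75th percentile of 108 against 370 on its TNF-KO counterpart, and 47.2% of its probes were detected against 66.2%. On the other 4 arrays the percentile ran from 272 to 675 and the share detected from 55.1% to 65.0%. The detection limit on that array lay at a level of -2.82, against -4.78 on its TNF-KO counterpart. Rela itself was at 1.81 (TNF/RelA-DKO) against 3.84 (TNF-KO) in the epithelial gate, 3.30 against 4.04 in the haematopoietic gate and 2.66 against 4.52 in thymocytes. The Tnf probe, although every group is labelled as a TNF knockout, was detected on 5 of the 6 arrays, at -2.71 (undetected) against -1.49 in the epithelial gate, -0.64 against -0.57 in the haematopoietic gate and -0.78 against -0.64 in thymocytes. Whether either probe lies in the deleted part was not tested. The summed signal of 3 epithelial markers, in multiples of the 75th percentile, was 871 and 590 on the TNF/RelA-DKO and TNF-KO arrays of CD45-EpCAM+ cells and at most 0.967 on any other array. Markers of T cells summed to 229 and 238 on the arrays of CD45+EpCAM- cells, beside 299 and 309 in CD4+CD25hi thymocytes and 116 and 62.0 in CD45-EpCAM+ cells, so that both stromal gates carried T cell RNA. Slide and population cannot be told apart, because both arrays of a population lay on a slide of their own.

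Kallikreins are secreted serine proteases that are made as inactive precursors. Klk1, tissue kallikrein, releases kinins from kininogen, and the Klk1b genes are its rodent relatives, many of them abundant in the salivary gland, where they process growth factors and renin. Klk4 to Klk15 act mainly in epithelia such as enamel-forming epithelium and epidermis, where Klk5 and its neighbours cut the junctions between cornified cells and are held in check by the inhibitor Spink5. Clade B serpins are protease inhibitors that mostly stay inside the cell, where they trap granzymes, neutrophil elastase or cathepsins that leak from granules and lysosomes. In the thymus, medullary epithelial cells are known to transcribe many genes that are otherwise restricted to single tissues, which lets developing T cells meet those proteins.

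In the gene table the kallikreins lie in 1 cluster on chromosome 7, with Klk4 to Klk15 on one side and Klk1 and the Klk1b genes on the other. The clade B serpins lie in a pair of clusters. Serpinb1, 6 and 9 genes share chromosome 13, and Serpinb2, 3, 5, 7, 8 and 10 to 13 share chromosome 1. Promoter windows from 250 bases before to 50 bases after the annotated start were found for 51 of the 54 members in the RefSeq table of GRCm38.p6, and for Klk1b7-ps, Serpinb13 and Serpinb1a none was matched.

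The 120 bases just before the start are shown for 5 genes of the Klk1 and Klk1b group and for Klk4, a member of the other kallikrein group. Each of them, Klk4 included, was lower by 2-fold or more in epithelial cells of TNF/RelA-DKO mice. Capitals mark the word GTCAGCATCTG, the longest word held by at least 12 of the 14 Klk1 and Klk1b windows on the gene's strand. All are on the forward strand of GRCm38.p6, and the regions are chr7:44225240-44225359 for Klk1, chr7:44216354-44216473 for Klk1b5, chr7:44012558-44012677 for Klk1b26, chr7:44137170-44137289 for Klk1b16, chr7:43975941-43976060 for Klk1b9 and chr7:43881040-43881159 for Klk4.
Klk1: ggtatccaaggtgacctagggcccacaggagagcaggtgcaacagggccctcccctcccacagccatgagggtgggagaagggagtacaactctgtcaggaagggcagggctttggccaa
Klk1b5: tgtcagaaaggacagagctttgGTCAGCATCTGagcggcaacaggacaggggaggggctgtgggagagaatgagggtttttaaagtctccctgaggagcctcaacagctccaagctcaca
Klk1b26: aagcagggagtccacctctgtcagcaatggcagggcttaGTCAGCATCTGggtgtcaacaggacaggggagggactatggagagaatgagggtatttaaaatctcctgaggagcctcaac
Klk1b16: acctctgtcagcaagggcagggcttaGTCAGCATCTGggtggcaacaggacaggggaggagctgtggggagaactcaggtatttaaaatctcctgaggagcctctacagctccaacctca
Klk1b9: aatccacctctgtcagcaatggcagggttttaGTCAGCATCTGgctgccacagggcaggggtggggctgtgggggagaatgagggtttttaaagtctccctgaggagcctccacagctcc
Klk4: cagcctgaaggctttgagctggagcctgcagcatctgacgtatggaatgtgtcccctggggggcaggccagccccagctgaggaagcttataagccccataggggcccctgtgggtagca

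The word was found in 12 of the 14 Klk1 and Klk1b windows, in all but those of Klk1 and Klk1b22, and began 50 to 100 bases before the start. It was found in 0 of 12 Klk4 to Klk15 genes and 0 of 25 clade B serpins with a window, and, on either strand, in 22 of all 32851 promoter windows of the table (0.067%). It was chosen on these windows, so that its share among them is a description. Klk1 and Klk1b22, without the word, were also lower by 2-fold or more in epithelial cells of TNF/RelA-DKO mice. A link between the word and the genotype difference was not tested. Between pairs of Klk1 and Klk1b windows, the share of identical bases in a global alignment had a median of 75.9% (40.9% to 90.4%, 91 pairs), against 49.3% (42.4% to 55.5%, 66 pairs) between windows of Klk4 to Klk15. Klk1b11 and Klk1b16 were the closest pair, and the window of Klk1 was at most 59.6% identical to any other. The windows were fixed to the annotated starts, so that starts out of register lower this share. The last bases printed for Klk1 resemble the first ones printed for Klk1b16, and how far such a shift lowered the shares of Klk1 was not tested. The NF-kB consensus was found, on either strand, in 0 of 14 Klk1 and Klk1b genes, in 2 of 12 Klk4 to Klk15 genes (Klk9 and Klk10) and in 0 of 25 clade B serpins, against 4.51% of all windows. TATAAA on the gene's strand, beginning 35 to 20 bases before the start, was found for 3 of the 51 genes (Klk15, Serpinb2 and Serpinb3c), against 1.84% of all windows. The 51 genes have 59 windows, so that for either motif a share of genes is not strictly comparable with a share of windows.

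On the TNF-KO epithelial array 92.6% of the kallikreins were detected, where 75.5% of all genes were. On the TNF/RelA-DKO array of CD45-EpCAM+ cells 16 of 27 were detected, on its TNF-KO counterpart 25, on both arrays of CD45+EpCAM- cells 17, and for thymocytes 9 on the TNF/RelA-DKO array and 8 on the TNF-KO array. The 16 are 59.3% and the 17 are 63% of the kallikreins, near the 57.0% of all genes on the first of these arrays and the 68.8% and 66.5% on the arrays of CD45+EpCAM- cells (TNF/RelA-DKO, then TNF-KO), while the 33.3% and 29.6% in thymocytes lie below 59.9% and 61.0%. Of the clade B serpins, 10 and 20 of 27 were detected on the TNF/RelA-DKO and TNF-KO arrays of CD45-EpCAM+ cells and 7 to 10 on each of the other 4. The 20 are 74.1%, near the share of all genes on that array. The other counts, 25.9% to 37%, lie below the 57.0% to 68.8% of all genes detected on those arrays. Klk6, Klk7, Klk11, Klk13, Klk14, Klk1b1 and Klk1b16 were detected on epithelial arrays only. So were Serpinb1b, Serpinb2, Serpinb3a, Serpinb3b, Serpinb6e, Serpinb7, Serpinb11, Serpinb12 and Serpinb13. These are 7 of the 25 kallikreins and 9 of the 21 clade B serpins detected on any array, beside 13.3% of all genes detected on any. Of them, Klk6, Klk1b16, Serpinb11 and Serpinb12 were detected on both arrays of CD45-EpCAM+ cells. The others were detected on the TNF-KO epithelial array alone, which detected the largest share of all genes (75.5%). Klk15, Klk1b7-ps, Serpinb3d, Serpinb9b, Serpinb9c, Serpinb9e, Serpinb9f and Serpinb9g were detected on no array.

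**Figure D1:**
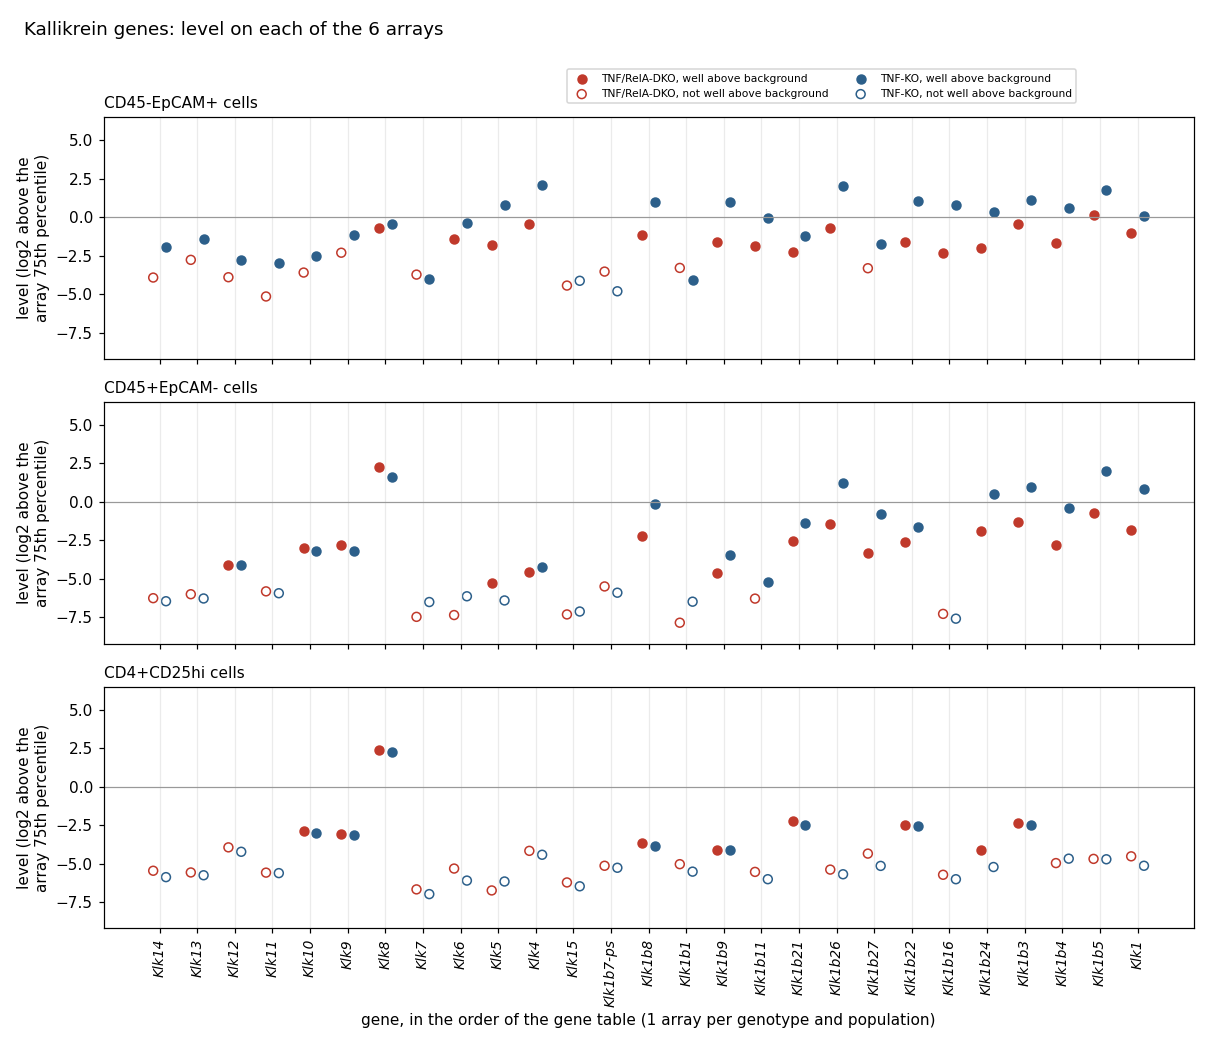
Levels of the 27 kallikreins on the 6 arrays, with a panel per population, genes along the horizontal axis in chromosomal order, and the level (log2 above the array's 75th percentile) on the vertical axis. Filled points were well above background and open ones were not, with TNF/RelA-DKO in red to the left of TNF-KO in blue. In CD45-EpCAM+ cells the red point lies below the blue one for each of the 22 kallikreins with a measurable difference, whereas Klk8 is lower there than in the other populations.

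**Figure D2:**
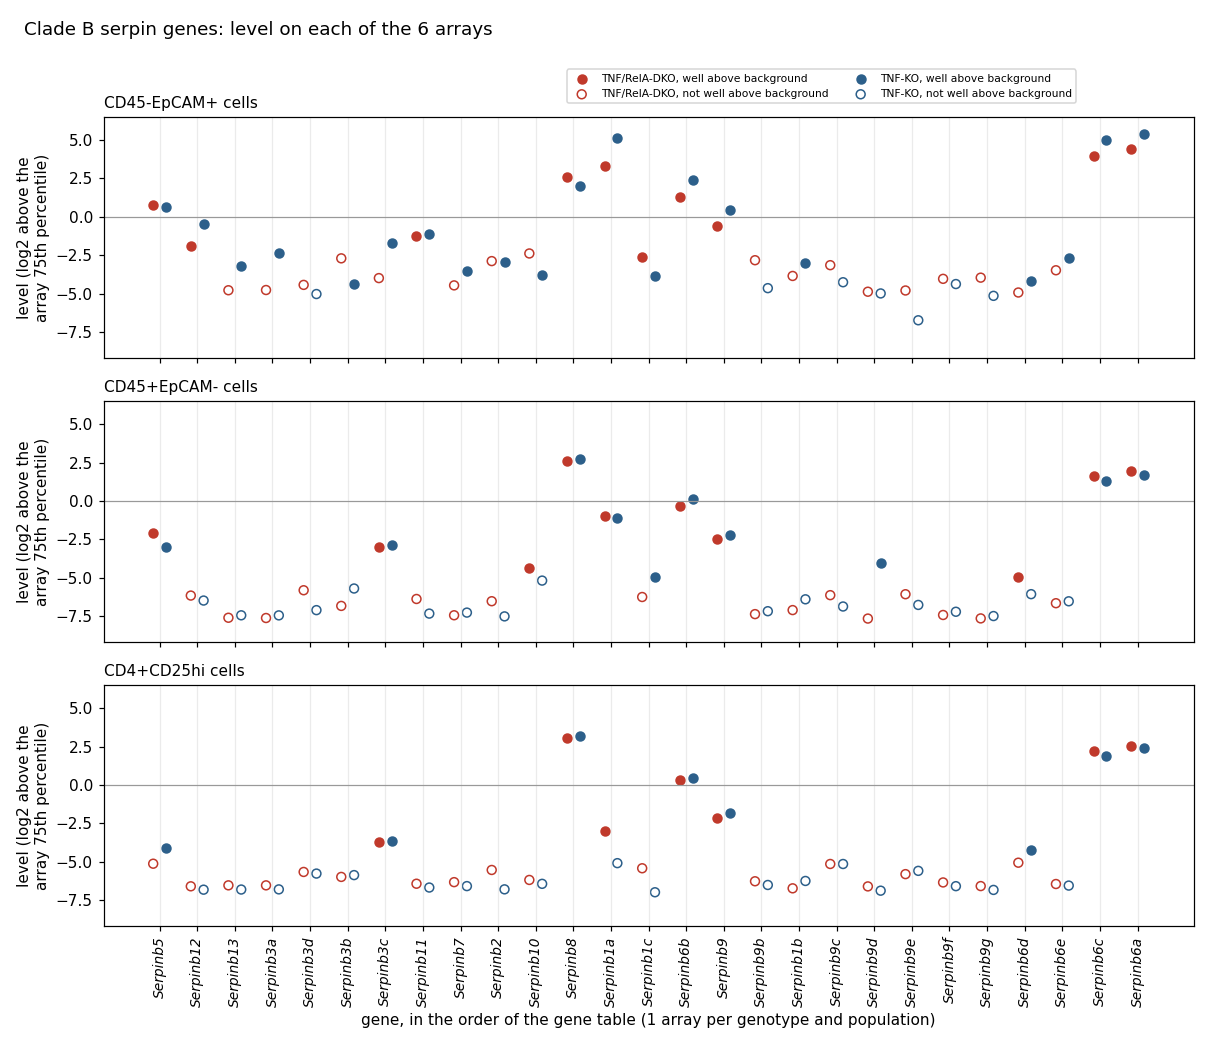
Levels of the 27 clade B serpins on the 6 arrays, drawn in the same way. Serpinb6a, Serpinb6b, Serpinb6c, Serpinb8 and Serpinb9 were detected on all 6 arrays, and Serpinb1a spans levels between -5.10 and 5.13.

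Kallikreins were compared between populations to ask where in the thymus each is transcribed. Klk4, the protease that degrades enamel matrix, and Klk5, which acts in epidermal shedding, were higher in CD45-EpCAM+ cells than in either other population, and so were Klk1b9 and Klk1b11. Klk4 was at -0.44 and 2.12 in CD45-EpCAM+ cells (TNF/RelA-DKO, then TNF-KO), against -4.56 and -4.22 in CD45+EpCAM- cells and -4.16 and -4.42 in CD4+CD25hi thymocytes. The epithelial levels thus lay above all 4 others, by 5.23 ± 0.78 (log2 difference ± SE) over CD45+EpCAM- cells (limma, Benjamini-Hochberg adjusted p = 0.011) and by at least 5.13 on the log2 scale over CD4+CD25hi thymocytes, where Klk4 was detected on neither array (adjusted p = 0.0114). Klk5 was at -1.83 and 0.78 in CD45-EpCAM+ cells, against -5.26 and -6.40 in CD45+EpCAM- cells and -6.74 and -6.16 in CD4+CD25hi thymocytes. Only the TNF/RelA-DKO array of CD45+EpCAM- cells detected it there, and with the detection limit in place of the undetected level it exceeded those cells by at least 4.81 on the log2 scale (5.30 ± 0.98 in the fit, adjusted p = 0.0177 by limma). It exceeded CD4+CD25hi thymocytes at least 17.8-fold (adjusted p = 0.0138). The call of Klk4 over CD45+EpCAM- cells was lost on leaving out either array of those cells, and that over thymocytes on leaving out their TNF-KO array. Klk5 lost the first call without the TNF-KO array of CD45+EpCAM- cells and the second on leaving out either thymocyte array.

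Klk8, known as neuropsin from the brain, had the opposite order. It was at -0.73 and -0.42 in CD45-EpCAM+ cells, against 2.29 and 1.61 in CD45+EpCAM- cells and 2.36 and 2.24 in CD4+CD25hi thymocytes. The epithelial levels lay below the other 4, with log2 differences of -2.53 ± 0.28 from CD45+EpCAM- cells (limma adjusted p = 0.00634) and -2.88 ± 0.28 from CD4+CD25hi thymocytes (adjusted p = 0.00487). It was the only kallikrein called lower in epithelial cells, and it kept both calls whichever of the 6 arrays was left out. Between CD45+EpCAM- cells and CD4+CD25hi thymocytes its levels did not pass the test (-0.35 ± 0.28, adjusted p = 0.443).

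Of the 12 Klk1 and Klk1b genes tested, 9 were called higher in CD45-EpCAM+ cells than in thymocytes, where 20.7% of all genes tested were, and 2 were called higher in CD45+EpCAM- cells than in thymocytes, where 7.82% were. Probes of this group may detect transcripts of one another, so that these counts need not be of separate genes. Klk1b26, a prorenin-converting and growth-factor-binding protease of the salivary gland, was at -0.70 and 2.03 in CD45-EpCAM+ cells and at -1.45 and 1.21 in CD45+EpCAM- cells, against -5.38 and -5.68 in CD4+CD25hi thymocytes, where it was not detected. Its excess over thymocytes was at least 40.5-fold in CD45-EpCAM+ cells (limma adjusted p = 0.0104) and at least 23.5-fold in CD45+EpCAM- cells (adjusted p = 0.04). The call in CD45+EpCAM- cells was lost with the mean over its 2 probes (adjusted p = 0.12), of which the other was undetected on both arrays of those cells, and with quantile normalization (0.0577), normexp (0.0816) or no filter on dim genes (0.0874). Klk1b5 was at 0.12 and 1.74 in CD45-EpCAM+ cells and at -0.70 and 2.02 in CD45+EpCAM- cells, against -4.69 and -4.71 in CD4+CD25hi thymocytes. For Klk1b5 the bounds were 46.5-fold (adjusted p = 0.00803) and 38.5-fold (adjusted p = 0.0278, and 0.0672 with no filter). These were the 2 kallikreins called higher in CD45+EpCAM- cells than in thymocytes, and both calls were lost whichever of the 4 arrays compared was left out.

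Klk1, tissue kallikrein itself, was at -1.0 and 0.06 in CD45-EpCAM+ cells and at -1.81 and 0.84 in CD45+EpCAM- cells, against -4.52 and -5.13 in CD4+CD25hi thymocytes. In CD45-EpCAM+ cells it was at least 18.5-fold above thymocytes (limma adjusted p = 0.0202), while the difference of CD45+EpCAM- cells from thymocytes missed the threshold (adjusted p = 0.0513). Between the stromal gates its difference was 0.02 ± 0.85 (adjusted p = 0.988), an error too wide to show that the gates were alike. Klk1b4 (at least 16.4-fold), Klk1b8 (3.65 ± 0.70 on the log2 scale), Klk1b24 (3.81 ± 1.04 in the fit, at least 3.63, since only the TNF/RelA-DKO thymocyte array detected it) and Klk1b3 (2.73 ± 0.65) were also called higher in CD45-EpCAM+ cells than in thymocytes, with limma adjusted p-values of 0.0108, 0.0192, 0.044 and 0.0325. Klk1b4 kept this call whichever array was left out, and Klk1b8 lost it without the TNF-KO array of CD45-EpCAM+ cells. Klk1b24 lost it with quantile normalization (adjusted p = 0.0701), with no filter (0.0598) and on leaving out any of the 4 stromal arrays, and Klk1b3 and Klk1 lost theirs on leaving out either CD45-EpCAM+ array or the TNF-KO thymocyte array. Over Klk1 and the Klk1b genes tested, the difference between the stromal gates had a median of 0.64, against -0.14 over all genes tested. Klk1b9, named for binding epidermal growth factor, was called higher in the epithelial than in the haematopoietic gate, at -1.61 and 0.98 in CD45-EpCAM+ cells, against -4.62 and -3.42 in CD45+EpCAM- cells (3.70 ± 0.69, adjusted p = 0.0178). Klk1b11 did likewise, at -1.87 and -0.07 against -6.28, undetected, and -5.19 (at least 4.40, and 4.77 ± 0.61 in the fit, adjusted p = 0.00824). Both calls were lost on leaving out either array of CD45+EpCAM- cells, and Klk1b9 lost its call over thymocytes without their TNF-KO array. Klk1b16, known as gamma-renin, was at -2.35 and 0.82 in CD45-EpCAM+ cells and was detected in no other population, which gives at least 26.2-fold over CD45+EpCAM- cells and at least 15.1-fold over thymocytes with no test, since it was detected on too few arrays. Klk6 had untested bounds of 24.0-fold and 13.8-fold in the same order. For Klk13 the untested values were 10.4-fold and 5.96-fold. They are no firm bounds, since the TNF/RelA-DKO array of CD45-EpCAM+ cells did not detect it and its level there was taken as read.

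Of the kallikreins, 18 of 27 were detected on at least 3 arrays and were tested. Between CD45-EpCAM+ cells and CD4+CD25hi thymocytes 11 were called higher and 1 lower, where 38.9% of 13740 genes were called, 20.7% higher and 18.3% lower. Between CD45-EpCAM+ and CD45+EpCAM- cells 4 were called higher and 1 lower, where 38.6% of genes were called, 19.4% higher and 19.2% lower, so that the kallikreins' share called higher was near the background. Between CD45+EpCAM- cells and thymocytes 2 were called higher and 0 lower, where 12.6% of genes were called, 7.82% higher and 4.82% lower. A member detected only in the gate where it is high reached the test through that gate, so these counts describe the members and support no direction. The p-values rest on how uneven the genotype difference was across populations, not on replicate pools. Without the TNF-KO array of CD4+CD25hi thymocytes, 7 kallikreins were called in the first contrast, and without the TNF-KO or the TNF/RelA-DKO array of CD45+EpCAM- cells 1 and 2 in the second.

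Among the clade B serpins, Serpinb1a, which inhibits neutrophil elastase and cathepsin G, had the largest differences between populations of the 10 tested. It was at 3.31 and 5.13 in CD45-EpCAM+ cells, against -0.99 and -1.12 in CD45+EpCAM- cells and -3.02 and -5.10 in CD4+CD25hi thymocytes, where only the TNF/RelA-DKO array detected it. The excess of CD45-EpCAM+ cells was 5.28 ± 1.02 over CD45+EpCAM- cells (limma adjusted p = 0.0195) and 8.28 ± 1.02 over thymocytes (adjusted p = 0.0073). The difference from thymocytes was at least 8.15 with the detection limit in place of the undetected level. Serpinb5, maspin, which inhibits no known protease, was at 0.80 and 0.64 in CD45-EpCAM+ cells, against -2.11 and -3.03 in CD45+EpCAM- cells and -5.14, undetected, and -4.08 in thymocytes. Its difference was 3.29 ± 0.53 from CD45+EpCAM- cells (adjusted p = 0.0129) and at least 5.02 from thymocytes (5.33 ± 0.53 in the fit, adjusted p = 0.00492), and the epithelial levels again lay above the other 4. Serpinb1a and Serpinb5 kept their calls over thymocytes whichever of the 6 arrays was left out. Over CD45+EpCAM- cells Serpinb1a lost its call on leaving out either array of those cells, and Serpinb5 without the TNF-KO array of those cells or either CD45-EpCAM+ array.

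The Serpinb6 and Serpinb9 genes that were detected everywhere were also highest in the epithelial gate. Serpinb6a, an inhibitor of cathepsin G and trypsin-like proteases, was at 4.42 and 5.38 in CD45-EpCAM+ cells, against 1.97 and 1.68 in CD45+EpCAM- cells and 2.56 and 2.41 in thymocytes, with differences of 3.08 ± 0.38 (limma adjusted p = 0.00746) and 2.42 ± 0.38 (adjusted p = 0.012). Serpinb6c was at 3.97 and 5.02, against 1.65 and 1.27 and against 2.19 and 1.86 in the same order, and Serpinb6b at 1.31 and 2.39, against -0.35 and 0.14 and against 0.35 and 0.48. Serpinb9, the inhibitor of granzyme B, was at -0.62 and 0.47 in CD45-EpCAM+ cells, against -2.48 and -2.25 in CD45+EpCAM- cells and -2.18 and -1.86 in thymocytes (2.29 ± 0.27, adjusted p = 0.00709, and 1.95 ± 0.27, adjusted p = 0.00955). Over thymocytes the calls of Serpinb6a, Serpinb6b, Serpinb6c and Serpinb9 were lost on leaving out either thymocyte array, and over CD45+EpCAM- cells without the TNF-KO array of those cells. Serpinb6b also lost the first on leaving out either array of CD45+EpCAM- cells, and Serpinb6b and Serpinb6c the second without the TNF/RelA-DKO array of those cells. Serpinb6a and Serpinb6c are close paralogs whose probes may share transcripts, which was not tested.

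Serpinb8, which inhibits the protease furin, was not called higher in epithelial cells, nor were Serpinb3c and Serpinb6d. Serpinb8 was at 2.59 and 2.04 in CD45-EpCAM+ cells, against 2.62 and 2.74 in CD45+EpCAM- cells and 3.05 and 3.16 in thymocytes. Its differences from them, -0.36 ± 0.23 (adjusted p = 0.253 by limma) and -0.79 ± 0.23 (adjusted p = 0.0528), did not pass the threshold. Of the epithelium-only serpins, Serpinb11 was at -1.23 and -1.15 and Serpinb12 at -1.87 and -0.46 in CD45-EpCAM+ cells. These lay at least 19.5-fold and 19.8-fold above CD45+EpCAM- cells and at least 11.2-fold and 11.4-fold above thymocytes, with no test.

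Of the clade B serpins, 10 of 27 were detected on at least 3 arrays and were tested. In CD45-EpCAM+ cells 7 were called higher than in thymocytes and 6 higher than in CD45+EpCAM- cells, and 0 were called lower in either contrast, where 20.7% of genes were called higher and 18.3% lower against thymocytes and 19.4% higher and 19.2% lower against CD45+EpCAM- cells. Among the 7 was Serpinb1c, at least 2.76-fold higher than in thymocytes (limma adjusted p = 0.0434), a call lost whichever of the 4 arrays compared was left out and with quantile normalization (0.101), normexp (0.115) or no filter (0.0596). Between CD45+EpCAM- cells and thymocytes 0 were called by limma, where 12.6% of genes were, and 2 had an unadjusted p below 0.05, as did 4899 of the 13740 genes. The median difference between the stromal gates was 2.35 over the tested serpins and 0.78 over the tested kallikreins, beside -0.14 over all genes tested. Without the TNF-KO array of CD45+EpCAM- cells, 1 serpin was called between the stromal gates, and without the TNF-KO or the TNF/RelA-DKO array of thymocytes 2 were called in each case between epithelial cells and thymocytes.

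**Figure D3:**
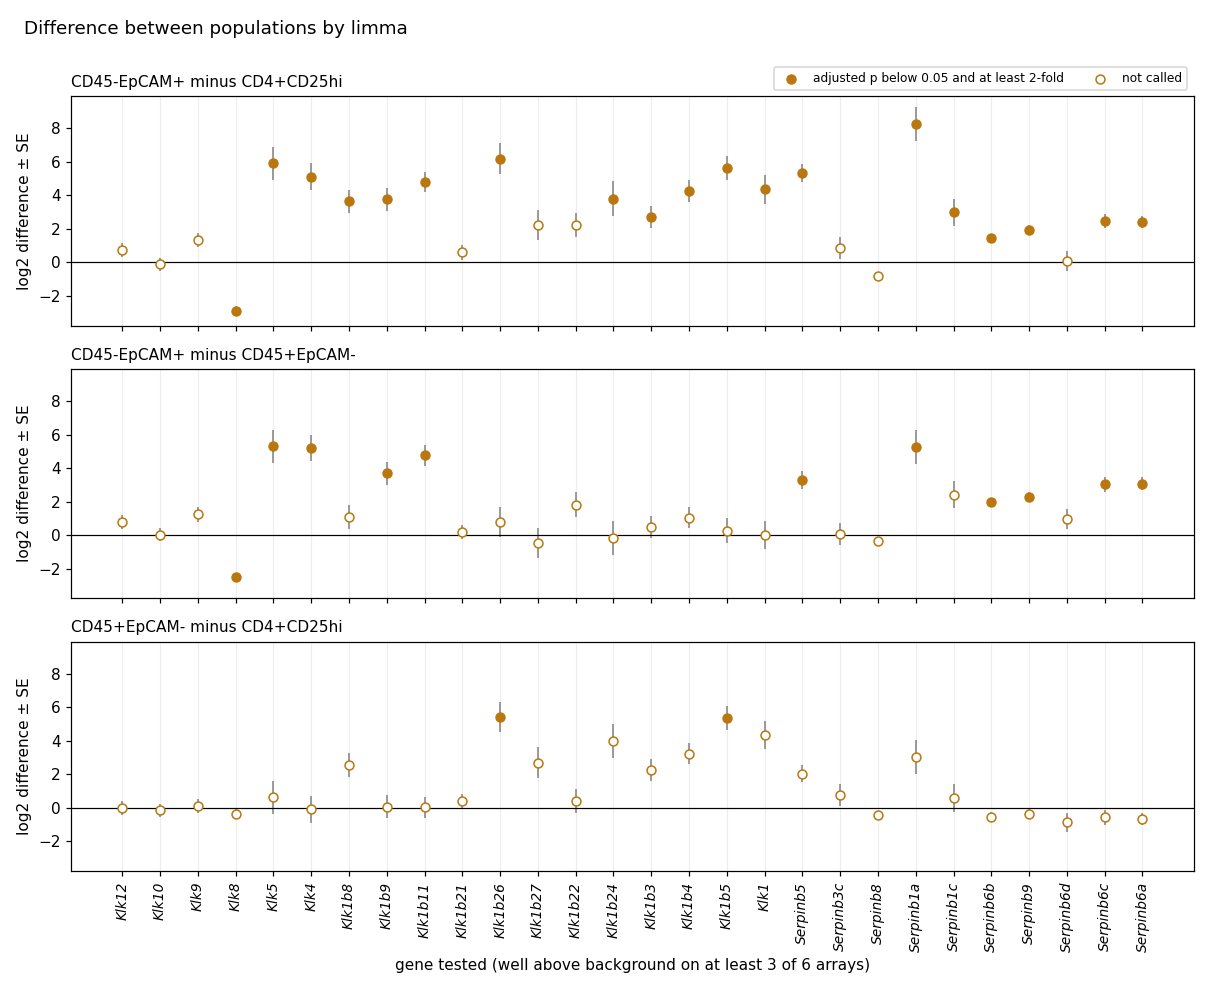
Differences between populations for the 28 members tested, with a panel per contrast, genes along the horizontal axis and the limma log2 difference with its SE on the vertical axis. Filled points were called at an adjusted p below 0.05 and at least 2-fold. Klk8 is the single called member below 0 in the contrasts of CD45-EpCAM+ cells, and in the contrast of CD45+EpCAM- cells with thymocytes Klk1b26 and Klk1b5 are the called members.

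The genotypes were compared within each population to ask which members differ in the absence of RelA. In CD45-EpCAM+ cells the kallikreins were lower in TNF/RelA-DKO mice. All 22 with a measurable difference were below 0, and 18 were at least 2-fold lower, where 9.3% of the 13208 genes with a measurable difference were. None was 2-fold higher, where 5.1% of genes were. A member detected only on the TNF-KO array could give no bound above 0, and of the 16 kallikreins detected on both arrays 15 were 2-fold lower, where 6.34% of such genes were. Over the 22, the median log2 difference, TNF/RelA-DKO minus TNF-KO, was -1.61, beside 0.03 over all genes. Of the other 5 kallikreins, 3 gave no fold and 2 were undetected on both arrays. All 13 measurable members of the Klk1 and Klk1b group were at least 2-fold lower (median -2.17), and 5 of 9 of Klk4 to Klk15 were (median -1.06). Probes of the Klk1 and Klk1b group may detect transcripts of one another, so that the counts that include them need not be of separate genes. With normexp background correction, a setting added after seeing the data, 11 kallikreins were 2-fold lower. Klk1, Klk1b11, Klk1b21, Klk6 and Klk13 were not among them, and Klk9 and Klk1b27 gave no fold.

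Klk1b16 showed the largest size among the brightest probes, at -2.35 on the TNF/RelA-DKO array against 0.82 on the TNF-KO array of CD45-EpCAM+ cells, 8.98-fold lower. Klk1b26, at -0.70 against 2.03, was 6.62-fold lower. Klk1b22, which was at -1.63 against 1.05, was 6.41-fold lower, and it too is known as a growth-factor-processing protease of the salivary gland.

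Klk1b9 was at -1.61 against 0.98 (6.01-fold lower) and Klk1b24 at -2.03 against 0.32 (5.11-fold). Klk1b4, the alpha subunit of the nerve growth factor complex, was at -1.70 against 0.59, 4.87-fold lower. Klk1b3, the gamma subunit of that complex, was at -0.47 against 1.13, 3.04-fold lower. Klk1b8 (4.52-fold), Klk1b11 (3.48-fold), Klk1b5 (3.07-fold), Klk1 (2.09-fold) and Klk1b21 (2.08-fold) were also lower, and Klk1b27 was at least 2.14-fold lower.

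Among Klk4 to Klk15 the sizes were uneven. Klk5 was at -1.83 against 0.78 (6.12-fold lower) and Klk4 at -0.44 against 2.12 (5.92-fold lower). Klk6, known as neurosin from the nervous system, was at -1.42 against -0.36, 2.08-fold lower. Klk13 was at least 2.53-fold and Klk9 at least 2.17-fold lower, both undetected on the TNF/RelA-DKO array. Klk8, with -0.73 against -0.42, was 1.24-fold lower. Klk14, Klk10 and Klk12 had bounds of 1.88-fold, 1.24-fold and 1.04-fold, and Klk7 and Klk11 gave no fold because the detection limit of the dim TNF/RelA-DKO array lay above their TNF-KO levels. Klk1b1 gave none for the same reason.

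Clade B serpins differed in both directions in CD45-EpCAM+ cells. Of the 13 with a measurable difference 6 were at least 2-fold lower, where 9.3% of genes were, and 1 was 2-fold higher, where 5.1% were, with a median of -0.96. Serpinb1a was at 3.31 against 5.13, 3.53-fold lower. Serpinb12 was at -1.87 against -0.46 (2.65-fold lower), and its other probe was undetected on the TNF/RelA-DKO array and at least 1.94-fold lower. Serpinb9 (2.13-fold), Serpinb6b (2.11-fold) and Serpinb6c (2.06-fold) were also lower, and Serpinb3c was at least 2.14-fold lower. Serpinb6a, at 4.42 against 5.38, was 1.95-fold lower, just short of the 2-fold limit. With normexp, Serpinb12 (-0.57) and Serpinb9 (-0.74) were less than 2-fold apart and Serpinb3c gave no fold, and with the mean over its probes so was Serpinb6c (-0.82).

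Serpinb1c, a paralog of Serpinb1a, went the other way, at -2.60 against -3.83, 2.34-fold higher in TNF/RelA-DKO mice. Serpinb8 (2.59 against 2.04), Serpinb5 (0.80 against 0.64) and Serpinb11 (-1.23 against -1.15) were 1.46-fold, 1.11-fold and 1.06-fold apart. All belong to the chromosome 1 cluster, as do Serpinb12 and Serpinb3c, which were lower by 2-fold or more. For 7 further serpins, detected in this gate on the TNF-KO array only, among them Serpinb2, the plasminogen activator inhibitor, and Serpinb13, an inhibitor of cathepsins, no fold could be given.

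**Figure D4:**
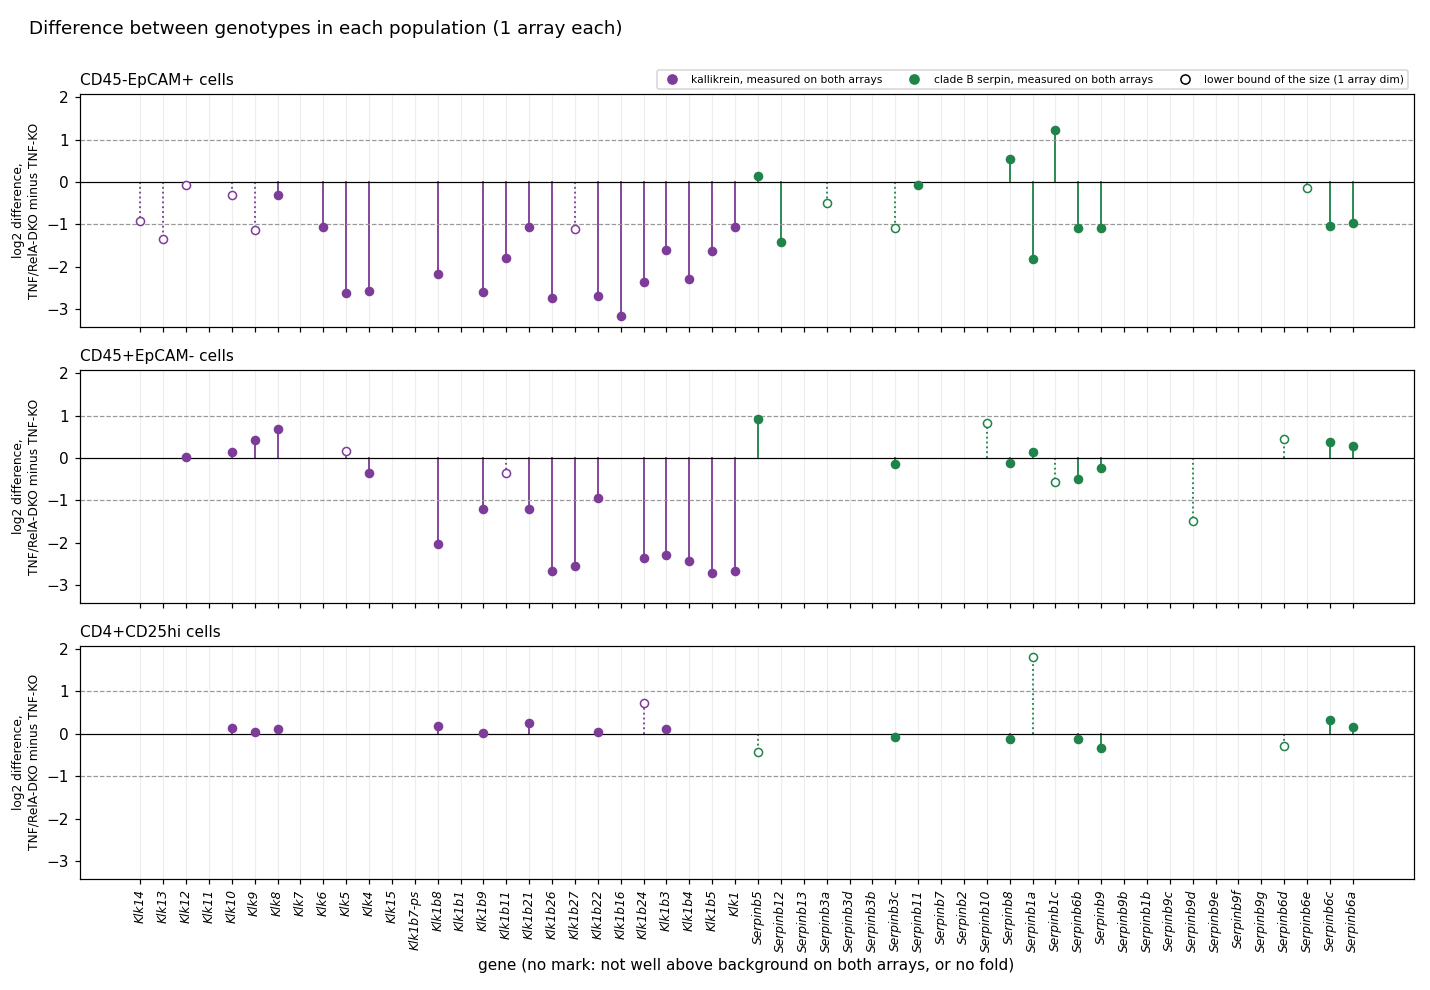
Genotype differences of the 54 members, TNF/RelA-DKO minus TNF-KO on the log2 scale, with a panel per population and genes along the horizontal axis, kallikreins in purple and clade B serpins in green. Filled points were detected on both arrays and open points with dotted lines are bounds. The Klk1 and Klk1b genes lie below -1 in CD45-EpCAM+ cells and mostly in CD45+EpCAM- cells, and between 0.02 and 0.72 in CD4+CD25hi thymocytes.

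Marker genes also differed between the genotypes in CD45-EpCAM+ cells, some lower and some higher in TNF/RelA-DKO mice. Of 7 medullary epithelial markers 5 were at least 2-fold lower in TNF/RelA-DKO mice, where 9.3% of all genes were lower by that size and 5.1% higher. Among the 5 were Aire, the regulator of tissue-restricted transcription (-0.86 against 1.04), Fezf2, another such regulator (0.86 against 2.75), and Tnfrsf11a, the receptor RANK (2.25 against 3.83). Krt5 was at 6.43 against 6.44. The medullary markers summed to 100 against 123 multiples of the 75th percentile, and the 6 cortical ones to 1465 against 855. Of the tissue-restricted genes outside the families, 8 of 8 with a measurable difference were at least 2-fold lower, among them Saa3 (-0.35 against 3.58), Ttr (a bound of -2.78), Reg3g (a difference of -2.52) and Tff3 (-0.82 against 1.67). Of 7 granulocyte markers with a measurable difference 5 were at least 2-fold lower as well, Ngp had a bound of -0.26 and Elane a difference of 0.52, with Mpo at -0.58 against 1.95 and a sum of 9.29 against 32.9. Of 6 late cornified medullary markers with a measurable difference 3 were at least 2-fold lower, Sbsn (-0.84) and Krtdap (-0.65) were lower by less, and Lor was at 1.26 against 1.12. Markers of other cells differed in both directions. Dendritic cell markers summed to 0.257 against 0.628, and both with a measurable difference were lower (Flt3 with a bound of -1.34 and Itgax of -0.35). Mast cell markers summed to 2.37 against 2.83, with Cpa3 at -0.29 against -2.55, Mcpt4 at -2.26 against -0.44 and Kit at 0.32 against 0.85. T cell markers summed to 116 against 62.0, with all 6 that had a measurable difference higher but none 2-fold. Parathyroid markers summed to 21.9 against 3.62, with Pth at 3.28 against -0.46 and Chga at 3.56 against 1.31, while Casr was at -1.84 against -1.53 and Gcm2 gave no fold. The sums were 10.0 against 4.69 for mesenchymal and endothelial markers, and Dcn, at 3.16 against 1.85, made up most of both. Pecam1 was at -2.04 against -2.84 and Col1a1 at -0.37 against -0.23, while Cdh5 gave no fold and Pdgfra was undetected on both arrays. Of 4 markers of the salivary gland, Amy1 alone gave a fold (-2.24 against -2.65, detected on both arrays). Prol1 (-3.99) and Bpifa2 (-3.31) were detected on the TNF-KO array only, and Smgc was undetected on both arrays. The part of these markers in the kallikrein and serpin differences was not tested.

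In CD45+EpCAM- cells the kallikreins 2-fold apart between the genotypes all belonged to the Klk1 and Klk1b group. There 10 of the 12 measurable members were at least 2-fold lower in TNF/RelA-DKO mice and the median was -2.32, while 0 of 6 measurable members of Klk4 to Klk15 were and their median was 0.15. Over all kallikreins 10 of 18 were 2-fold lower, beside 2.08% of 14586 genes, and 0 were 2-fold higher, beside 1.82%. Here too the 10 need not be separate genes, since their probes may detect transcripts of one another. Klk1b5 was at -0.70 on the TNF/RelA-DKO array against 2.02 on the TNF-KO array, 6.59-fold lower. Klk1b26 was at -1.45 against 1.21 (6.34-fold lower) and Klk1 at -1.81 against 0.84 (6.30-fold lower).

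Klk1b27 (-3.31 against -0.77, 5.82-fold) and Klk1b4 (-2.81 against -0.38, 5.38-fold) were lower by similar sizes. Klk1b24 (5.13-fold), Klk1b3 (4.88-fold), Klk1b8 (4.11-fold), Klk1b21 (2.31-fold) and Klk1b9 (2.30-fold) completed the 10, though with normexp Klk1b21 (-0.89) and Klk1b9 (-0.52) were less than 2-fold apart. Klk1b22 was at -2.58 against -1.64, 1.91-fold lower, and Klk1b11 had a bound of 1.27-fold. Klk4 was at -4.56 against -4.22 and Klk8 at 2.29 against 1.61, 1.60-fold higher.

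The clade B serpins of CD45+EpCAM- cells were nearly level between the genotypes. Of 12 measurable members 1, Serpinb9d, was 2-fold apart, where 3.89% of genes were. It was undetected on the TNF/RelA-DKO array and at -4.05 on the TNF-KO array, at least 2.80-fold lower, which became a difference of -0.46 with normexp. The serpins' median was 0.01, beside -0.01 over all genes. Serpinb1a was at -0.99 against -1.12, Serpinb6a at 1.97 against 1.68 and Serpinb8 at 2.62 against 2.74. Serpinb5 was at -2.11 against -3.03, 1.89-fold higher.

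Other cell markers also differed between these 2 arrays. Of 5 dendritic cell markers 4 were at least 2-fold lower in TNF/RelA-DKO mice, where 2.08% of all genes were. Flt3 was at -1.70 against 0.14, Cd209a at -4.25 against -2.33 and Clec9a at -4.01 against -2.27, and the sum was 1.12 against 3.44. Of 8 granulocyte markers 6 were at least 2-fold higher, where 1.82% of all genes were, with S100a8 at 2.40 against 0.21 and a sum of 23.8 against 6.73. Macrophage markers summed to 14.4 against 8.99 and T cell markers to 229 against 238. Of the 5 macrophage markers 0 were 2-fold apart, and Lyz2 was lower (-1.69 against -1.32) while the others were higher. Their part in the Klk1 and Klk1b differences was not tested.

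A probe for Klk1b26 other than the brightest gave a different picture in CD45+EpCAM- cells. It was at -6.25 and -6.07 on the TNF/RelA-DKO and TNF-KO arrays there, detected on neither, where the brightest probe was at -1.45 and 1.21. In CD45-EpCAM+ cells it was at -3.13, undetected, against 1.29, at least 17.2-fold lower in TNF/RelA-DKO mice. Probes of the near-identical Klk1b genes may detect transcripts of one another, and the probe sequences are not used here, so that the values of Klk1 and the Klk1b genes cannot be taken as those of separate genes. Klk1b16, whose promoter window is 90.4% identical to that of Klk1b11, was detected in CD45+EpCAM- cells on neither array, in contrast to 12 of the 15 genes of its group.

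In CD4+CD25hi thymocytes 0 of 9 measurable kallikreins were 2-fold apart, where 2.95% of 12933 genes were, 1.28% lower and 1.68% higher in TNF/RelA-DKO mice. Their median was 0.13, beside -0.02 over all genes. Klk8 was at 2.36 against 2.24 and Klk1b3 at -2.34 against -2.47. Of 9 measurable serpins, Serpinb1a was at -3.02 on the TNF/RelA-DKO array and undetected on the TNF-KO array, at least 3.54-fold higher (a log2 difference of 0.38 with normexp), and none of the others was 2-fold apart. Serpinb9, at -2.18 against -1.86, was 1.25-fold lower.

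For a genotype effect common to the 3 populations, 0 of the 18 tested kallikreins and 0 of the 10 tested serpins were called by limma with population as a block, as were 0 of the 13740 genes (0%). At an unadjusted p below 0.05 stood 1 kallikrein, 0 serpins and 873 genes. Klk1b4 was that kallikrein, with a difference of -1.67 ± 0.51 (adjusted p = 0.679). It was lower in TNF/RelA-DKO mice in both stromal gates and undetected on both thymocyte arrays, whose levels at background also entered this fit. The adjusted p-values of the 28 members ran from 0.679 to 0.996. The median difference was -1.07 over the kallikreins and -0.13 over the serpins, beside 0.02 over all genes tested.

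Known regulators and targets of the kallikreins were described from a list. Of its 24 genes 23 were named on the array, and in CD45-EpCAM+ cells 15 had a measurable difference between genotypes. Of these, 6 were at least 2-fold lower and 2 higher in TNF/RelA-DKO mice, where 9.3% and 5.1% of all genes were. Spink5, the inhibitor of Klk5, was at -1.77 against 0.29, and Slpi, a secreted inhibitor of leukocyte proteases, at -0.90 against 1.58. Kng1, which encodes the kininogen that Klk1 cuts, was at -1.93 against 0.56. Serpina3n, a secreted serpin of another clade, went the other way, at -0.41 against -3.33. In CD45+EpCAM- cells 11 were measurable and 1, Wfdc21, was 2-fold apart (-2.56 against -4.69), where 3.89% of all genes were. Spink5 and Kng1 were undetected there. In CD4+CD25hi thymocytes 0 of 6 measurable genes were 2-fold apart, where 2.95% of all genes were.

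Proteases that clade B serpins are known to inhibit were described in the same way. In CD45-EpCAM+ cells 6 of 16 measurable genes were at least 2-fold lower and 2 higher in TNF/RelA-DKO mice, where 9.3% and 5.1% of all genes were. Mcpt4, a mast cell chymase, was at -2.26 against -0.44 and Gzma, a granzyme of cytotoxic cells, at 3.78 against 2.33. Ctsk, a lysosomal cathepsin, and Prss34, a mast cell and basophil protease, were undetected on the TNF/RelA-DKO array, with bounds of -1.81 and -1.61 on the log2 difference. In CD45+EpCAM- cells 2 of 14 were 2-fold lower and 1 higher, where 2.08% and 1.82% of all genes were. Gzmb, the protease that Serpinb9 inhibits, was at -2.49 against -0.21 there, while Serpinb9 itself was at -2.48 against -2.25. Elane, the target of Serpinb1a, which was added after its values were seen, was at -0.76 against -1.07 in CD45+EpCAM- cells and at -0.76 against -1.29 in CD45-EpCAM+ cells.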

How the data were processed

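The members, groups and context lists were chosen with earlier results of these data known. The authors deposited scanner files of spot intensity from array design 026655. Per the file headers they were made with Feature Extraction 10.5.1.1, while the submitters' processing notes name version 9.5. Per the file headers, that software had already corrected the processed signal for background. The authors' deposited value table, whose scale no source used here states, is on a log2 scale and equalled the values below to within 0.05 for 100.0% of probes after an offset per array. Its column medians were -2.72 and -2.84 (TNF/RelA-DKO, then TNF-KO, CD45-EpCAM+), -3.58 and -3.63 (CD45+EpCAM-) and -3.61 and -3.71 (CD4+CD25hi).

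Control spots and spots with an outlier flag were left out, spots of a probe were averaged, and log2 of the processed signal minus the array's 75th percentile was taken. Of 39419 probes 27472 had 1 symbol in the GRCm38.p6 gene table, 35 several and 11912 none. Coordinates of the array design, of build mm9, are not given, and the promoter regions printed are of GRCm38.p6. Populations were compared with limma 3.58.1 (R 4.3.3) with genotype as a covariate, and the common genotype effect with population as a block. Both fits used the 13740 genes detected on at least 3 arrays, with 2 residual and 1.74 prior degrees of freedom. Calls needed a Benjamini-Hochberg adjusted p below 0.05 and, between populations, at least 2-fold. The fits were tested on simulated data with independent noise. These data held no effect of slide or of a dim array, so that they do not check the calls made here. Nothing states that a pool was repeated, so the p-values measure the spread between these arrays only. For called members that 1 of 2 arrays of a population detected, the lowest detected level of the array replaced the undetected one in a lower limit added after seeing the data. Promoter windows were aligned with Biopython 1.88.

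Members 2-fold apart between genotypes, the largest differences between populations and the groups and genes of special interest were named, with up to 4 genes per context list. The alternatives were other scalings, normexp, the deposited values, the mean over probes, filters on dim probes, left-out arrays and other models.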

Additional observations from a re-analysis of the deposited data

Results flagged for a closer look

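Serpinb1a went in opposite directions in a pair of populations. In CD4+CD25hi thymocytes the TNF/RelA-DKO array detected it at -3.02 and the TNF-KO array did not, a log2 difference of at least 1.82, whereas in CD45-EpCAM+ cells it was at 3.31 against 5.13, a difference of -1.82. The genotype differences thus lay at least 3.64 apart on the log2 scale. This value depends on the processing, since with normexp the difference in thymocytes was 0.38. With 1 array per group this difference between populations was not tested.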

How the results depend on the processing

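The serpin genotype median in CD4+CD25hi thymocytes, -0.12, was 0.04 with normexp, and the kallikrein median of CD45+EpCAM- minus CD4+CD25hi, 0.51, was -0.03. With normexp on the median signal, chosen after seeing the data because the files hold no mean signal, 11 kallikreins were at least 2-fold apart between genotypes in CD45-EpCAM+ cells, and 0 serpins in CD4+CD25hi and 0 in CD45+EpCAM- cells. The kallikrein median in CD45+EpCAM- cells was then -0.76, and in CD45-EpCAM+ cells Klk1 (-0.61), Klk1b11 (-0.83), Klk1b21 (-0.07), Klk6 (-0.34) and Klk13 (-0.02) were less than 2-fold apart. Between populations normexp gave kallikrein and serpin medians of 2.01 and 1.27 for CD45-EpCAM+ minus CD4+CD25hi, a serpin median of 1.71 and 8 called kallikreins for CD45-EpCAM+ minus CD45+EpCAM-, and 1 called kallikrein for CD45+EpCAM- minus CD4+CD25hi. With detection required on both arrays, the kallikrein genotype medians were -2.23 (CD45-EpCAM+) and -1.62 (CD45+EpCAM-), and 0 serpins were 2-fold apart in CD4+CD25hi and 0 in CD45+EpCAM- cells. With members without a fold counted as 0, the kallikrein medians were -1.12 and 0 and the serpin median in CD45-EpCAM+ cells was 0. With detection required on all 4 arrays compared, fewer genes were tested: 5 kallikreins (median 2.47) and 4 serpins were called for CD45-EpCAM+ minus CD4+CD25hi, 3 kallikreins (serpin median 3.04) for CD45-EpCAM+ minus CD45+EpCAM-, and 0 kallikreins for CD45+EpCAM- minus CD4+CD25hi. Without the filter, 19 serpins (kallikrein median 2.96), then 13 kallikreins (median 1.52) and 20 serpins (median 3.04), then 0 kallikreins were called in the same order. For CD45+EpCAM- minus CD4+CD25hi, 1 kallikrein was called with quantile normalization and 1 with the mean over probes, and 1 serpin without the genotype covariate. The cause of these shifts was not tested. Over the 6 fits that leave out 1 array, 7 to 12 kallikreins and 2 to 8 serpins were called for CD45-EpCAM+ minus CD4+CD25hi, 1 to 8 and 1 to 6 for CD45-EpCAM+ minus CD45+EpCAM-, and 0 to 2 kallikreins and 0 serpins for CD45+EpCAM- minus CD4+CD25hi. No paired analysis was possible because each group has 1 array and the labels carry no replicate numbers, and arrays were matched only through genotype or population as a term of the fits. Leaving out saturated spots was not run, since 0 spots were saturated. The detection limit of the dim TNF/RelA-DKO CD45-EpCAM+ array left 3 kallikreins and 7 serpins without a fold.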
